A study of Mus musculus with 12 samples.

Results

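The immediate early genes examined here were 10 genes, *Fos*, *Fosb*, *Jun*, *Junb*, *Egr1*, *Egr2*, *Atf3*, *Ier2*, *Nr4a1* and *Dusp1*, chosen by symbol as a measure of stimulation around birth and dissection. Every array probe annotated to them was taken, which gave 11 probes, out of 19057 genes and 45281 probes on the array. The values are bead signals, the mean fluorescence of the beads that carry a probe, read on Illumina MouseWG-6 v2.0 BeadChips, 1 lung per array. The lungs came from 6 KO pups lacking cavin-1 and from 6 WT pups, all labelled C57/bl6 and 0 to 6 h old. The deletion is constitutive and so not confined to 1 cell type of the lung, and cavin-1 is a coat protein of caveolae. Pups were decapitated and the lungs were dissected and frozen, and the minutes between birth, death and freezing are not recorded for the single animals. A probe was called detected where its detection p was under 0.05.

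Immediate early genes are transcribed within minutes of a stimulus by factors that are already present in the cell, without new protein synthesis, and their RNAs are short-lived. Growth factors, stretch, calcium entry, oxygen shortage and handling of tissue all induce them. The mitogen-activated protein (MAP) kinases relay many of these signals to serum response factor, which binds the CArG box together with ternary complex factors, and to CREB and ATF proteins, which bind sites with the letters TGACG. Fos and Jun proteins pair to form the transcription factor AP-1, Egr proteins are zinc-finger factors, and Dusp1 is a phosphatase that switches the MAP kinases off again.

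The library labelled KO 157 stood apart from its label. *Cavin1* in it was at 8.47 and 11.66 on the log2 scale with its 2 probes, against 1.67 to 2.89 and 3.60 to 5.37 in the other 5 KO lungs and 8.22 to 8.92 and 11.57 to 11.79 in WT lungs. Its title and description also give different animal numbers. All 10 lung markers were detected in all 12 lungs. Detected probes per array made up 46.2% to 49.1% in KO lungs and 45.3% to 48.2% in WT lungs. The probes detected on every array had a median signal of 275 to 369 in KO lungs and 279 to 417 in WT lungs, and the tests below were therefore made on background-corrected and quantile-normalized log2 signals.

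Promoters are shown for the 4 members whose levels moved together or oppositely across lungs, chosen with their values known, since these are the sequences the results below come back to. RefSeq (GRCm38.p6) gave windows of 300 bases, reaching 250 bases before and 50 bases into the transcript, for 8 of the 10 members. Capitals mark TGACG on either strand and the CArG box. *Fos* is at chr12:85473640-85473939 (plus strand), *Dusp1* at chr17:26508423-26508722 (minus strand), *Jun* at chr4:95052173-95052472 (minus strand) and the *Egr2* window, 1 of 5 for that gene, at chr10:67537619-67537918 (plus strand).
Fos: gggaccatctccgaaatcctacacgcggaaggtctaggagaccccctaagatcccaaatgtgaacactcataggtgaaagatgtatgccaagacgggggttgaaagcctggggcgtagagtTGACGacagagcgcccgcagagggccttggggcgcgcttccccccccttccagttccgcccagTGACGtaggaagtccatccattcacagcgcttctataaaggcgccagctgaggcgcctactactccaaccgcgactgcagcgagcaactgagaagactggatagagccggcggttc
Dusp1: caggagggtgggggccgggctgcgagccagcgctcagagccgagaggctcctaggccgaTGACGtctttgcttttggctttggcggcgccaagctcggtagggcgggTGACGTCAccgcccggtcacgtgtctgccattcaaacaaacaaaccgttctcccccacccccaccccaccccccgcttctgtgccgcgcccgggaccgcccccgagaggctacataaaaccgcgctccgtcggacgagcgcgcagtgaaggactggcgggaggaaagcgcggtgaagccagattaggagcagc
Jun: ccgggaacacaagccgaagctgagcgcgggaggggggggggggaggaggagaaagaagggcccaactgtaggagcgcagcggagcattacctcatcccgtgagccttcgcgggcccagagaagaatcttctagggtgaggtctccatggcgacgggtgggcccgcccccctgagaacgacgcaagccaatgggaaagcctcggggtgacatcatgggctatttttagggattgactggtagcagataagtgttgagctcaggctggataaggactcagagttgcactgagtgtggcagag
Egr2: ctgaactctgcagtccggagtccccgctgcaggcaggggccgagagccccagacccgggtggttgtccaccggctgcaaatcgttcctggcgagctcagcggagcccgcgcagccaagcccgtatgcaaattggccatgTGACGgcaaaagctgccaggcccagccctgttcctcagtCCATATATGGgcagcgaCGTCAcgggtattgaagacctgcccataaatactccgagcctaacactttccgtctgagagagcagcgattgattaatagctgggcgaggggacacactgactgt
The *Fos* window held 2 copies of TGACG, at positions −129 and −66 from the transcript start. The *Dusp1* window held it at position −191 and again inside the palindrome TGACGTCA, which begins at position −143 and contains TGACG on both strands. The *Jun* window had neither motif in these letters. TGACG was found on either strand in 9 of 12 windows, belonging to 7 of 8 members, against 20.8% of 32851 promoter windows of the same length. TGACGTCA occurred in 1.79% of all windows, and among the members only in that of *Dusp1*. The CArG box was in 4 of 5 *Egr2* windows, in no other member's window and in 1.63% of all windows. The *Egr2* windows that begin at 67537619, 67537620 and 67537680 overlap, so the window counts include the same sites more than once. The shares over all windows are not shares of genes, so the count of members has no like value beside it. These matches are letters in a window and not measured binding.

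Of the members, 8 were detected in every newborn lung. *Dusp1* gave the brightest probe (5844 to 15280 in KO lungs, 5404 to 11403 in WT lungs), followed by *Fos* (1539 to 6673 in KO lungs, 1443 to 3336 in WT lungs) and *Egr1* (1037 to 2026 in KO lungs, 760 to 2393 in WT lungs), all as bead signals. Probes differ in how well they bind, so this order is not one of transcript abundance. *Jun* lay between 603 and 1396 in KO lungs and between 622 and 905 in WT lungs, and *Junb* between 380 and 784 in KO lungs and between 306 and 744 in WT lungs. *Fosb*, *Egr2* and *Atf3* were near the array background but detected in every lung, with bead signals from 120 to 264 in KO lungs and from 123 to 315 in WT lungs. *Nr4a1*, a nuclear receptor without a known ligand, was detected in 0 KO lungs and 1 WT lung. *Ier2*, a small nuclear protein, was detected in 1 KO lung and 1 WT lung. The second *Junb* probe (ILMN_1254833) was detected in 1 KO lung and 0 WT lungs, so no fold change is given for these 3 probes.

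No member passed the threshold between KO and WT lungs, with 0 of 11 probes at an adjusted p under 0.05 in limma's test, where 0.148% of all probes passed. The 3 probes of *Egr1*, *Junb* and *Jun* had an unadjusted p under 0.05, and all were higher in KO lungs. Over all probes, 13.4% had such a p (6.33% higher and 7.05% lower in KO lungs), and 20.3% of the 17622 probes detected in every lung. Of the 8 detected members, 7 had a log2 fold change above 0, against 46.9% of the probes detected in every lung. The median over the 10 genes, with *Nr4a1* and *Ier2* at background among them, was 0.28 on the log2 scale. That over all probes, detected or not, was −0.00139. Without the library labelled KO 157 the count was also 0, with 2 probes at an unadjusted p under 0.05.

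Among the Fos proteins, *Fos* itself showed the widest range of the bright members. In KO lungs its log2 signal had a lowest value of 10.66, a median of 11.62 and a highest value of 12.53, and in WT lungs 10.44, 11.25 and 11.74. The groups overlapped, and 3 KO lungs (157, 186 and 192) lay above every WT lung. The means were 11.62 ± 0.69 in KO lungs and 11.12 ± 0.48 in WT lungs (SD, n = 6 each), a difference of 0.50 log2 units (standard error 0.26, limma's adjusted p = 0.410, 95% interval −0.03 to 1.04). Without KO 186 it was 0.32, and without the library labelled KO 157 it was 0.40 (limma's adjusted p = 0.575). The 3 KO lungs with high *Fos* carry animal numbers near those of the WT mice (142 to 188), and the other 3 are numbered 235, 237 and 238. Whether these numbers stand for litters or days is not given in the sources used here.

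*Fosb*, a close relative that also pairs with Jun proteins, had 5.42, 6.40 and 7.15 as lowest, median and highest log2 signals in KO lungs and 5.72, 6.00 and 6.24 in WT lungs. A total of 4 KO lungs were above and 2 were below every WT lung. The KO minus WT difference was 0.30 log2 units (standard error 0.25, limma's adjusted p = 0.646), and it was 0.13 without KO 186 and 0.48 without KO 238.

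*Jun*, the AP-1 partner of Fos, had a lowest log2 signal of 9.13, a median of 9.55 and a highest of 10.16 in KO lungs, against 9.19, 9.29 and 9.41 in WT lungs. In all, 5 KO lungs were above every WT lung and KO 237 was below them all. The WT lungs were close together, with an SD of 0.08 against 0.34 in KO lungs, and this difference in spread was not tested. The KO minus WT difference was 0.29 log2 units (standard error 0.13, unadjusted p = 0.0390, limma's adjusted p = 0.340), and 0.17 without KO 186 (limma's adjusted p = 0.538).

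*Junb*, which often opposes Jun at AP-1 sites, had 8.54, 8.93 and 9.30 in KO lungs and 8.08, 8.48 and 8.95 in WT lungs as lowest, median and highest log2 signals. All 6 KO lungs were above the WT median and 3 were above every WT lung, the highest being the library labelled KO 157. The means were 8.96 ± 0.30 in KO lungs and 8.48 ± 0.30 in WT lungs (SD, n = 6 each). The KO minus WT difference was 0.47 log2 units (standard error 0.15, unadjusted p = 0.00550, limma's adjusted p = 0.173). It was 0.40 (limma's adjusted p = 0.293) without the library labelled KO 157.

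*Atf3*, a stress-induced factor that binds ATF sites, had 5.02, 6.19 and 6.64 in KO lungs and 5.47, 5.83 and 6.71 in WT lungs. The groups overlapped, with KO 235 below every WT lung, and the difference was 0.06 log2 units (standard error 0.27, limma's adjusted p = 0.956). Its sign turned when any one of 4 lungs was left out.

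The 2 Egr factors had differences of opposite sign, and neither passed. *Egr1* had a lowest log2 signal of 10.24, a median of 10.71 and a highest of 10.91 in KO lungs, against 9.68, 10.15 and 10.81 in WT lungs. All 6 KO lungs were above the WT median, and WT 142 (10.81) was above 4 KO lungs, while the other WT lungs reached at most 10.25. The means were 10.66 ± 0.23 in KO lungs and 10.16 ± 0.38 in WT lungs (SD, n = 6 each), a difference of 0.50 log2 units (standard error 0.15, unadjusted p = 0.00334, limma's adjusted p = 0.142). Without WT 142 it was 0.63 with an adjusted p of 0.048 from limma, the only setting tried in which a member passed.

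*Egr2* had 5.13, 6.37 and 7.22 as lowest, median and highest log2 signals in KO lungs and 6.08, 6.55 and 7.29 in WT lungs. The same 3 KO lungs that were high for *Fos* (157, 186 and 192) were below every WT lung. The KO minus WT difference was −0.35 log2 units (standard error 0.30, limma's adjusted p = 0.655), and −0.13 without the library labelled KO 157 (limma's adjusted p = 0.899). It was −0.22 without KO 192, −0.22 without WT 142, −0.55 without KO 235 and −0.13 with no background correction.

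*Dusp1*, the feedback phosphatase, had 12.62, 13.27 and 13.73 in KO lungs and 12.63, 13.12 and 13.34 in WT lungs. KO 237 and WT 177 were almost equal at the low end, and the libraries labelled KO 157 and KO 186 were above every WT lung. The KO minus WT difference was 0.26 log2 units (standard error 0.16, limma's adjusted p = 0.50), and 0.17 without the library labelled KO 157 (limma's adjusted p = 0.705).

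**Figure D1:**
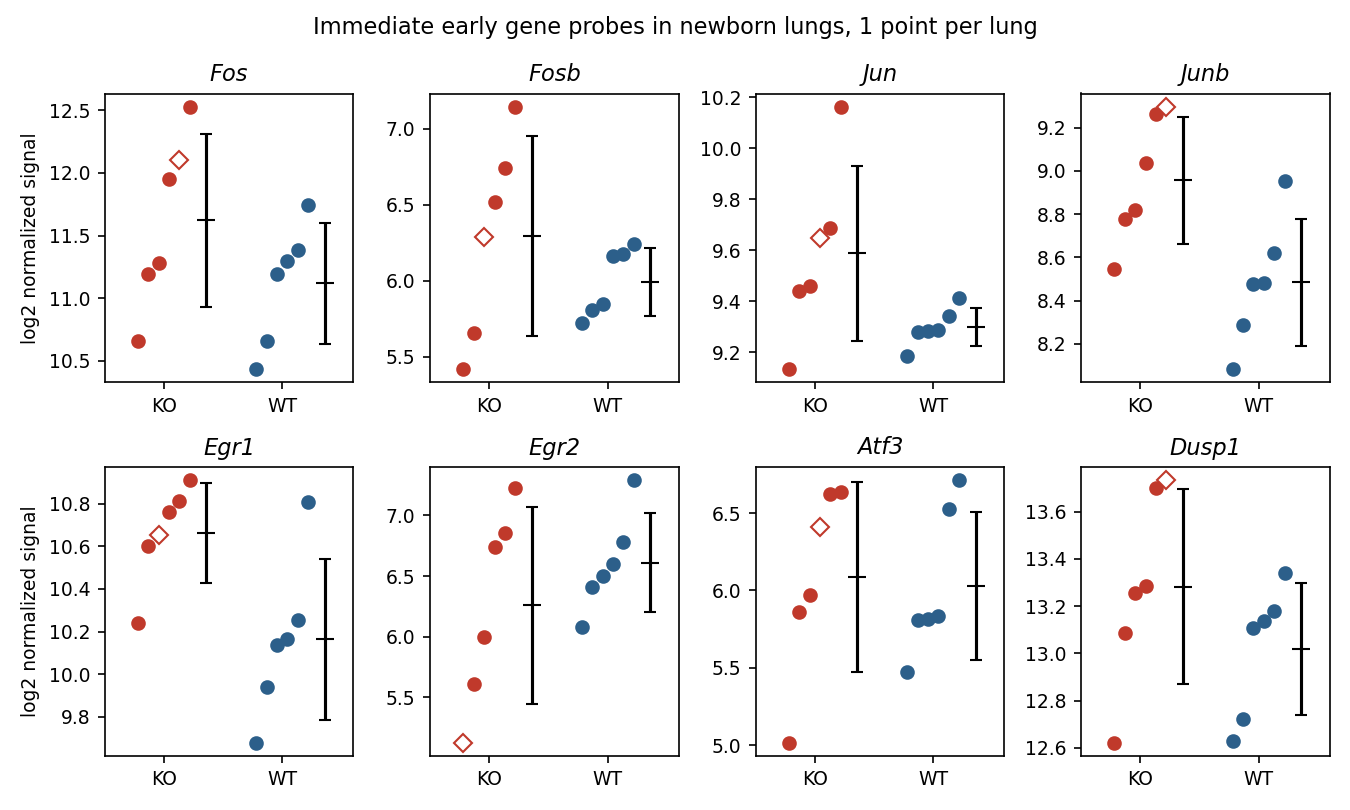
Log2 normalized signals of the 8 members detected in all 12 lungs, with KO lungs left of WT lungs, 1 point per lung and the mean and SD beside each group (n = 6 each). The open diamond is the library labelled KO 157. KO and WT points overlap for every member, and *Jun* spans 9.13 to 10.16 in KO lungs and 9.19 to 9.41 in WT lungs.

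Neutrophil and muscle marker levels also varied between the lungs. Of 8 neutrophil markers, all measured and 7 detected in every lung, 0 passed the threshold and 6 were higher in KO lungs at an unadjusted p under 0.05, as were 6.33% of all probes and 9.19% of those detected in every lung. Their mean log2 signal was 9.26 to 10.03 in KO lungs and 8.51 to 9.45 in WT lungs, and their summed bead signal was 16314 to 29562 in KO lungs and 16648 to 32602 in WT lungs. The WT lung 142, which had the highest *Egr1* of its group, also had the highest neutrophil mean of the WT lungs (9.45) and the highest macrophage mean of all lungs (10.03). A covariate of the neutrophil mean was chosen after seeing the data. With it, the log2 fold change of *Egr1* was 0.26 (standard error 0.24, limma's adjusted p = 0.776). That of *Junb* was 0.41 (standard error 0.25, limma's adjusted p = 0.630). The neutrophil mean itself largely followed genotype, with every WT lung but 142 at 8.84 or below and every KO lung at 9.26 or above. These fits could not separate it from genotype, and the standard error of *Egr1* without the covariate was 0.15. *Egr1* correlated with the neutrophil mean at r = 0.67 over 12 lungs (permutation test, adjusted p = 0.0597 over 6 relations; rho = 0.68, adjusted p = 0.109), with r = −0.61 within KO lungs and 0.80 within WT lungs. With the macrophage mean, r was 0.67 over 12 lungs (permutation test, adjusted p = 0.0597; rho = 0.60, adjusted p = 0.119), 0.72 within KO lungs and 0.79 within WT lungs. The part of these cells in the *Egr1* and *Junb* values was not tested further, and in whole lung fewer cells of a type and less RNA per cell cannot be told apart. Skeletal muscle markers, 5 of 6 measured, had mean log2 signals of 6.67 to 11.15 in KO lungs and 6.20 to 11.65 in WT lungs. Apart from KO 157 (6.67) and WT 187 (11.65), the means were 9.48 to 11.15 in KO lungs and 6.20 to 8.04 in WT lungs. Summed bead signals were 1236 to 14354 in KO lungs and 1060 to 31183 in WT lungs. Of these markers 0 passed, with 4 higher in KO lungs at an unadjusted p under 0.05, and their median log2 fold change was 2.12. With the skeletal muscle mean as a covariate, the log2 fold changes were 0.47 for *Egr1*, 0.51 for *Junb* and 0.53 for *Fos*. This covariate too followed genotype in most lungs.

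Between lungs of one genotype, 7 of the 8 members varied more than most probes did. The within-genotype SD on the log2 scale was 0.64 for *Egr2*, 0.60 for *Fos*, 0.55 for *Atf3* and 0.49 for *Fosb*, above 97.0%, 95.8%, 94.2% and 90.6% of the 17622 probes detected in every lung. *Dusp1* (0.35), *Egr1* (0.31) and *Junb* (0.30) were above 73.8%, 65.8% and 61.5% of these probes, and *Jun* (0.25) was at 47.8%. The median of the 8 members was 0.42 and that of all detected probes 0.26. *Egr2*, *Atf3* and *Fosb* were near the array background, and the comparison is with detected probes of any brightness. The library labelled KO 157 was included as a KO lung. KO 186 was among the 3 highest lungs for 6 of the 8 members, and the libraries labelled KO 157 and KO 192 were for 4 each. The WT lungs 177, 179, 182 and 188 were among the 3 highest for none. WT 142 was highest of all lungs for *Egr2* and *Atf3* and lowest for *Fos*.

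*Dusp1* followed *Fos* from lung to lung. Over 12 lungs, r was 0.92 and rho 0.90 (permutation test, p = 6e-05 and 0.00021, adjusted p = 0.00072 and 0.00126 over 12 relations with *Fos*). The relation was positive within each genotype, with r = 0.91 in the 6 KO lungs (exact permutation test, p = 0.00972, adjusted p = 0.0583) and 0.88 in the 6 WT lungs (exact permutation test, p = 0.0236, adjusted p = 0.184). Without KO 186 and WT 142, the 2 lungs farthest from the median of *Fos*, r was 0.88 (permutation test, adjusted p = 0.0128), and leaving out KO 157 instead gave 0.91 (permutation test, adjusted p = 0.00324). Both promoter windows printed above hold TGACG, as do those of 5 other members, *Egr2* among them, while the *Jun* window does not. The part of this motif in the relation was not tested.

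*Egr2* ran opposite to *Fos*, with r = −0.77 and rho = −0.90 over 12 lungs (permutation test, adjusted p = 0.0128 and 0.00126). It was −0.77 within KO lungs and −0.72 within WT lungs (exact permutation test, adjusted p = 0.181 and 0.400), so the sign was shared by both genotypes. Leaving out KO 186 and WT 142 gave the same r of −0.77 (permutation test, adjusted p = 0.0587) and a rho of −0.85 (adjusted p = 0.0190). Leaving out KO 157 gave an r of −0.75 (permutation test, adjusted p = 0.0325). Among the 8 members with a window, *Egr2* alone had a CArG box there, and sites more than 250 bases before the start were not searched. Whether the motif has a part in this relation was not tested.

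*Jun* correlated with *Fos* over all lungs and had an r near 0 within WT lungs. Over 12 lungs r was 0.80 and rho 0.68 (permutation test, adjusted p = 0.00498 and 0.0756). It was 0.95 within KO lungs (exact permutation test, p = 0.00972, adjusted p = 0.0583) and −0.04 within WT lungs, whose *Jun* values spanned only 9.19 to 9.41. The difference between these 2 correlations was not tested. Without KO 186 and WT 142, r was 0.71 (permutation test, unadjusted p = 0.022, adjusted p = 0.0880), so r stayed positive and the call was lost with 10 lungs. *Fosb* had r = 0.63 with *Fos* (adjusted p = 0.0867), *Junb* 0.38, *Atf3* 0.34 and *Egr1* 0.11, and these 4 did not pass the permutation test.

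Technical measures and marker means were among the same 12 relations. The array's median signal had r = 0.01 with *Fos* over 12 lungs, but 0.80 within KO lungs (exact permutation test, p = 0.0319, adjusted p = 0.128) and −0.13 within WT lungs. The share of detected probes had r = 0.50, the neutrophil mean 0.27, the erythroid mean −0.15 and the heat shock mean 0.41, with adjusted p of 0.236 or more (permutation test). For the heat shock mean, r was 0.65 within KO lungs, 0.84 within WT lungs (exact permutation test, p = 0.0306, adjusted p = 0.184) and 0.59 with KO 157 left out. Their part in the *Fos* values was not tested.

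The other 21 pairs were correlated after seeing the data. *Egr1* and *Junb*, the 2 members with the smallest p between genotypes, had r = 0.85 and rho = 0.76 over 12 lungs (permutation test, adjusted p = 0.0130 and 0.0555 over 21 pairs). Within genotypes r was 0.58 in KO lungs and 0.86 in WT lungs, and it was 0.82 (adjusted p = 0.0482) without KO 157 and WT 177, the lungs farthest from the median of *Junb*. *Fosb* and *Jun* had r = 0.81 over 12 lungs (permutation test, adjusted p = 0.0152; rho = 0.72, adjusted p = 0.0567), with 0.80 in KO lungs and 0.83 in WT lungs. *Jun* and *Dusp1* had r = 0.74 (adjusted p = 0.0246) and *Egr2* and *Dusp1* −0.73 (adjusted p = 0.0389), and without the 2 farthest lungs r was 0.74 for the first pair and −0.66 for the second, with neither past the threshold (adjusted p = 0.105 and 0.187). The other 17 pairs did not pass.

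**Figure D2:**
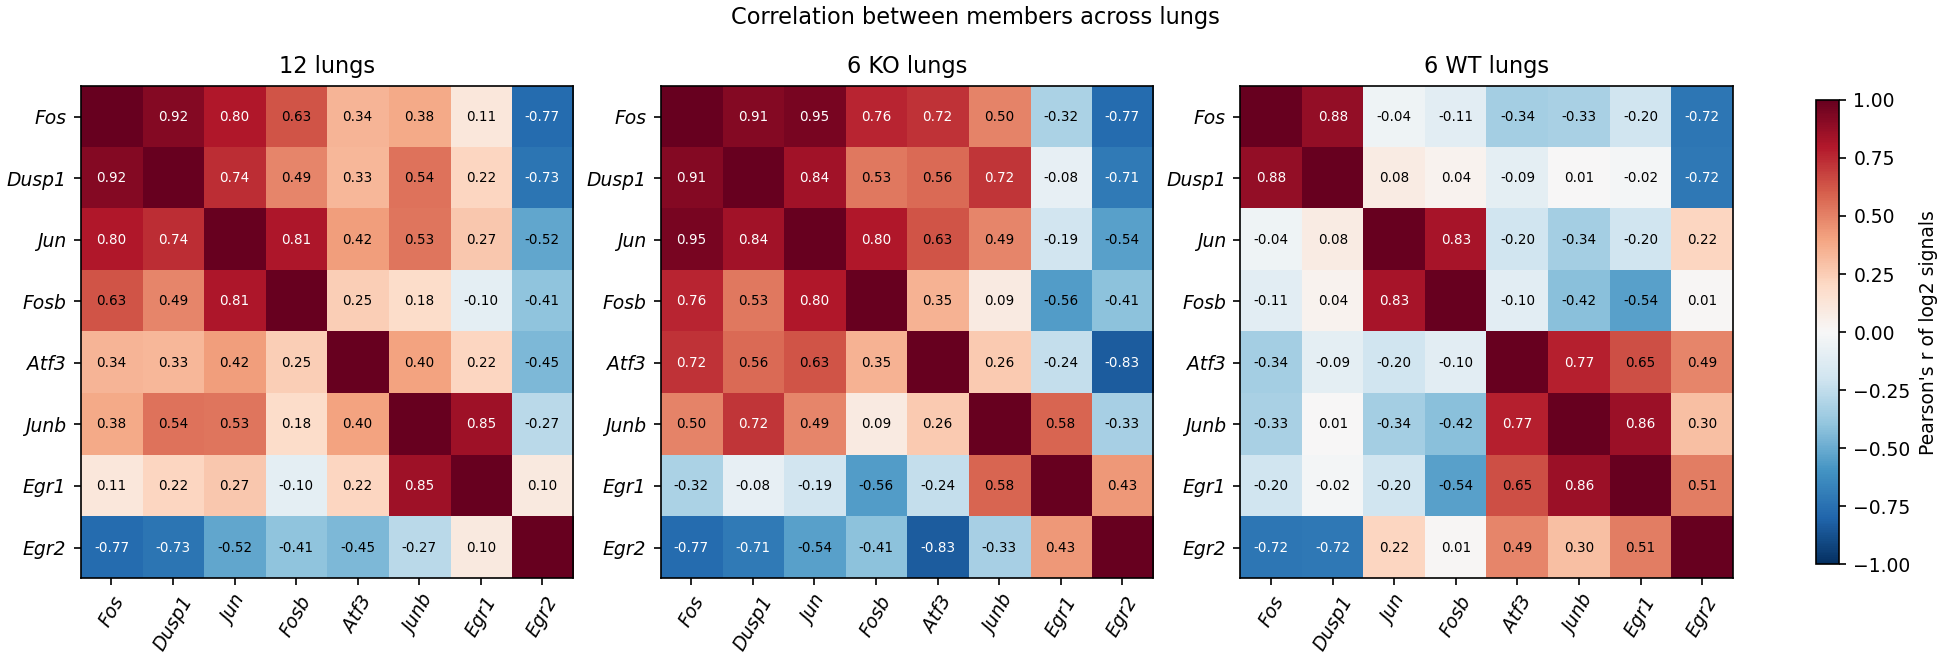
Pearson's r between the log2 signals of each pair of the 8 detected members, over 12 lungs, within 6 KO lungs and within 6 WT lungs, with red for positive and blue for negative values. *Fos* and *Dusp1* stay together in all 3 panels (0.92, 0.91 and 0.88), *Fos* and *Egr2* stay opposite (−0.77, −0.77 and −0.72), and *Fos* and *Jun* go together in KO lungs (0.95) with −0.04 in WT lungs.

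**Figure D3:**
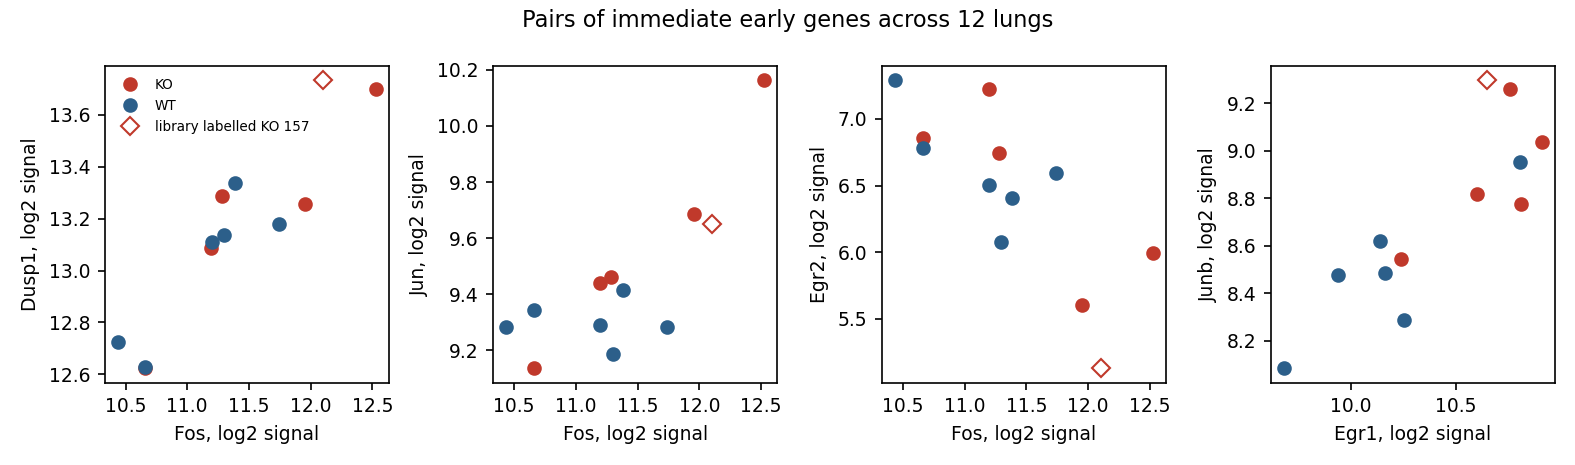
Log2 normalized signals of 4 pairs of members, 1 point per lung, with KO lungs in red, WT lungs in blue and the library labelled KO 157 as an open diamond. *Dusp1* climbs with *Fos* in both genotypes, *Egr2* declines with it, the WT lungs stay flat for *Jun*, and the WT lung at *Egr1* 10.81 lies among the KO lungs.

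The genes whose brightest probe followed *Fos* most closely were listed among 10152 genes detected in every lung. They were *Klf2* (r = 0.94), an endothelial factor induced by shear stress, *Ccsap* (0.93), *Tent5b* (0.93), *Spsb1* (0.92) and *Zc3h3* (0.92). *Klf2* had mean log2 signals of 11.64 in KO lungs and 11.19 in WT lungs, with a difference of 0.45 log2 units (standard error 0.17, limma's adjusted p = 0.245). *Dusp1* ranked 7 in this list, *Jun* 98 and *Egr2* 9980. These ranks describe 12 lungs and carry no test.

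Of 42 further immediate early genes, 41 were measured and 33 were detected in every lung. *Fosl2* alone passed the threshold, and 0 were lower, against 0.0663% and 0.0817% of all probes. At an unadjusted p under 0.05, 13 were higher and 3 lower, where 6.33% of all probes were higher and 7.05% lower. Of the probes detected in every lung, 9.19% were higher and 20.3% had such a p in either direction. The list's median difference was 0.16. *Fosl2*, a Fos-family partner of Jun, had 10.67, 11.02 and 11.72 as lowest, median and highest log2 signals in KO lungs and 10.03, 10.23 and 10.63 in WT lungs. The groups did not overlap, as for 1.44% of all probes. The KO minus WT difference was 0.85 log2 units (standard error 0.15, limma's adjusted p = 0.0318), and 0.73 without the library labelled KO 157 (limma's adjusted p = 0.0523). Its other 2 probes were at background, detected in at most 1 lung. *Fosl1* was not analysed here.

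Next by p were *Per1*, a clock gene with rapid induction, *Dusp4*, a nuclear MAP kinase phosphatase, and *Zfp36*, which speeds decay of AU-rich RNAs. *Per1* averaged 10.94 ± 0.29 in KO lungs and 10.24 ± 0.33 in WT lungs (SD, n = 6 each), with a difference of 0.70 log2 units (standard error 0.15, limma's adjusted p = 0.0584). Its dimmer probe ILMN_2813487 had 0.86 (standard error 0.16, limma's adjusted p = 0.0326) with no overlap, and the third *Per1* probe was detected in 4 KO and 2 WT lungs. *Dusp4* had 0.83 (standard error 0.18, limma's adjusted p = 0.0627) and *Zfp36* 0.65 (standard error 0.15, limma's adjusted p = 0.0780), each with all 6 KO lungs above the WT median. Leaving out the library labelled KO 157 gave 0.61 for the brightest *Per1* probe, 0.79 for *Dusp4* and 0.58 for *Zfp36*. Their adjusted p from limma were then 0.0993, 0.104 and 0.133.

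**Figure D4:**
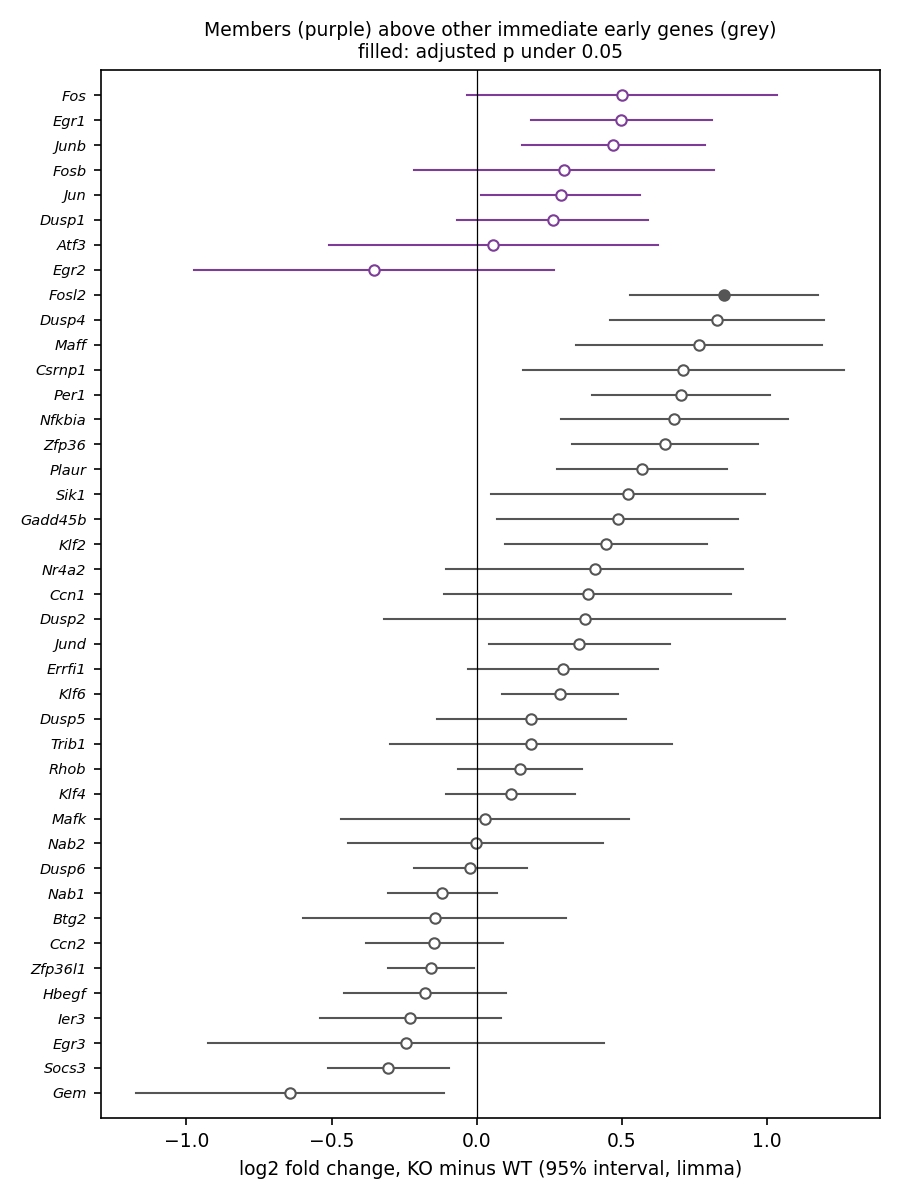
Log2 fold changes, KO minus WT, with 95% intervals from limma for the 8 detected members (purple, top) and the 33 further immediate early genes detected in every lung (grey), 1 brightest probe per gene. The filled point, *Fosl2* at 0.85, is the one with an adjusted p under 0.05, and *Egr2* at −0.35 is the lowest member.

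Upstream of these genes, 19 of 25 listed kinases and transcription factors were measured, and 0 passed the threshold. At an unadjusted p under 0.05, 0 were higher and 3 lower, where 13.4% of all probes and 20.3% of those detected in every lung had such a p, and the list's median difference was −0.07. *Elk3*, a ternary complex factor that represses at CArG boxes until phosphorylated, averaged 6.49 ± 0.22 in KO lungs and 7.08 ± 0.18 in WT lungs (SD, n = 6 each). It differed by −0.59 log2 units (standard error 0.15, limma's adjusted p = 0.0964), with 5 KO lungs below every WT lung. The stress kinase *Mapk9* (JNK2) had −0.37 (standard error 0.10, limma's adjusted p = 0.107), the ribosomal S6 kinase *Rps6ka3* −0.41 (standard error 0.15, limma's adjusted p = 0.228) and the p38 kinase *Mapk14* −0.18 (standard error 0.09, limma's adjusted p = 0.390).

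Heat shock genes answer stress by another route, through heat shock factor. Of 10 listed, 9 were measured and 0 passed limma's threshold, with 1 higher and 1 lower at an unadjusted p under 0.05 (20.3% of probes detected in every lung had such a p) and a median log2 fold change of −0.16. *Hspa8*, the constitutive cytosolic chaperone, had 13.18 to 13.43 in KO lungs and 12.92 to 13.15 in WT lungs. These ranges did not overlap, as for 1.44% of all probes, and the difference was 0.29 log2 units (standard error 0.07, limma's adjusted p = 0.0874). Its other probes, ILMN_1249586 and ILMN_2918479, overlapped between the groups. Their differences were 0.30 and 0.18 log2 units (limma's adjusted p = 0.195 and 0.429). *Hspa1b*, the inducible form, averaged 4.91 ± 0.43 in KO lungs and 5.68 ± 0.44 in WT lungs (SD, n = 6 each), with a difference of −0.78 log2 units (standard error 0.25, limma's adjusted p = 0.177). This probe was dim, with bead signals of 109 to 132 in KO lungs and 134 to 191 in WT lungs, and the difference was −0.23 with no background correction, −0.48 with probes merged and −0.19 in the second *Hspa1b* probe. The mitochondrial chaperones *Hspd1* and *Hspe1* had −0.16 (adjusted p = 0.471) and −0.17 (adjusted p = 0.511). *Hsf1* was not analysed here.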

How the data were processed

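Lung RNA of 6 newborn cavin-1 KO and 6 newborn WT mice was measured on MouseWG-6 v2.0 BeadChips (Illumina), 1 array per animal. The authors deposited intensity values, the mean bead signals from GenomeStudio before any background subtraction or normalization, and a deposited detection p-value accompanies each. A second table, with intensity values background-subtracted and quantile-normalized by the authors, served only as an alternative, with values under 16 set to 16 before log2.

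The bead signals were background-corrected with the RMA convolution model, then quantile-normalized and put on a log2 scale in R 4.3.3 with limma 3.58.1. Each of 45281 probes was fitted on its own by limma with a mean-variance trend, KO minus WT, with Benjamini-Hochberg adjustment over all probes at a threshold of 0.05. The study's methods merge probes by median and use SAM. Merging was run here with limma and SAM on unmerged probes, as separate alternatives, and SAM on merged probes was not run. The methods' t-test was a further alternative. The script was tested on simulated data. Correlations across lungs used a permutation test with 100000 resamples, or all orders within 6 lungs, two-sided. Positions in promoters count from the transcript start, whose first base is 1.

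Every member probe was named, and from each other list up to 4 genes with the smallest p. In each list a gene took its brightest probe. The members and lists were chosen with earlier results of these data known. The number of arrays limits the precision, and for a probe at background no fold is given. The study's methods give littermate controls and up to 12 h after birth, whereas the labels give 0 to 6 h. The labels name no litter or BeadChip, so no batch was fitted. Sequences are from RefSeq, and *Egr1* and *Ier2* had no window. The plots were drawn with matplotlib 3.10.9 in Python 3.11.15.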

Additional observations from a re-analysis of the deposited data

How the results depend on the processing

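The paper describes pairs of mice with littermate controls, but the labels identify neither pairs nor litters, so no paired analysis was possible. With any one lung left out, the number of member probes past the threshold ran from 0 to 1, that of the other immediate early genes from 0 to 4, that of the upstream genes from 0 to 1 (*Mapk9*, without KO 192) and that of heat shock genes stayed at 0. *Fosl2* was lost without KO 157, 186 or 238 or without WT 177, 179, 182, 187 or 188. The other immediate early genes gave 0 calls with the authors' values, limma without a trend, the methods' t-test and SAM, and 3 (*Dusp4*, *Fosl2* and *Per1*) with a detection filter and with array weights. The filter also gave 1 heat shock gene, *Hspa8* (adjusted p = 0.0486 from limma). Merging probes by median put *Fosl2* at 0.16, with its dim probes included, *Junb* at 0.165 with its background probe included and *Dusp4* at 0.52, and called *Per1* (0.86, adjusted p = 0.0477 from limma) in place of *Fosl2*.

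*Atf3* turned to −0.51 with the neutrophil covariate, ran from −0.0529 to 0.272 with 1 lung left out (below 0 without KO 157, 186 or 192 or WT 177), and was −0.15 in bead signals without correction or normalization. In those signals *Fosb* was −0.0151, *Jun* −0.00807 and the median of all probes −0.11, so the members' direction there is relative to that shift. *Fos* (0.20), *Egr1* (0.18) and *Junb* (0.12) stayed above 0.

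Correlations with *Fos* within KO lungs were 0.95 for *Jun*, 0.914 for *Dusp1*, −0.767 for *Egr2* and −0.32 for *Egr1*. Within WT lungs they were −0.109 for *Fosb*, −0.0406 for *Jun*, −0.327 for *Junb*, −0.202 for *Egr1*, −0.72 for *Egr2*, −0.342 for *Atf3* and 0.879 for *Dusp1*. Without the 2 farthest lungs *Jun* had 0.709 and *Egr2* −0.767. With 6 lungs and 12 relations no relation within a genotype passed, which the smaller n bears on by construction. The median spread of the members was 0.265 without background correction, against 0.149 for all detected probes.

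All probes past the threshold numbered 67, against 23 with median scaling, 44 with 75th-percentile scaling, 172 with the filter, 231 with array weights, 38 genes after merging, 27 with the neutrophil and 117 with the skeletal muscle covariate, 1067 without normalization, 0 with the authors' values, without a trend, by the t-test and by SAM, and 0 to 580 with 1 lung left out. The covariates of cell markers, the 75th-percentile scaling and the signals without normalization were added after seeing the data. Other causes of these shifts were not tested.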
